A study of Homo sapiens with 2 samples.

Results

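The genes described here encode the core proteins of the machinery that removes introns from pre-mRNA. They were taken as the protein-coding genes whose symbol starts with SRSF, HNRNP, SNRP, SF3A, SF3B, LSM or PRPF, which gave 88 of the 60623 genes in the count tables. The data are 2 RNA sequencing libraries of OCI-AML3, an established cell line from an acute myeloid leukaemia, with the genotype given as WT and the tissue as bone marrow. All cells were grown in MEM α medium with fetal bovine serum. In the treated group, cells were kept for 24 h with omipalisib (GSK2126458), an inhibitor of class I PI3K and mTOR kinases, at 50 nM, and in the other group with its solvent DMSO alone. Each group is 1 library, so nothing here measures the spread between cultures. The libraries held 26367832 counted fragments for DMSO and 22599164 for omipalisib, and 80 of the 88 genes had a summed count of at least 20 and were measured.

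Splicing is carried out by the spliceosome, which is built anew on each intron from the U1, U2, U4/U6 and U5 small nuclear ribonucleoproteins (snRNPs). Most snRNPs carry a ring of Sm proteins around their RNA, and U6 carries a related ring of LSm proteins. SR proteins and hnRNPs bind the transcript itself and steer which splice sites are used, often in opposite directions. PI3K and AKT signalling is known to act on SR proteins through their kinases. Many SR protein and hnRNP genes limit their own mRNA through exons that trigger its decay, which counts per gene cannot separate from full-length mRNA.

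All log2 ratios are omipalisib over DMSO after scaling the libraries by the TMM method. Each is set against the other RNA of its library and gives no amount per cell. The 95% interval after each ratio is exact for counting error and compares these 2 libraries, not the conditions, because there is no replicate and no p-value can be given. In bulk RNA, fewer cells of a kind and less RNA per cell cannot be told apart. A gene is called lower or higher where its interval excluded 0 and its log2 ratio was at least 0.32 either way, and the counts by the interval alone are given beside these.

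As to the label of the line, 10 of 11 genes listed for a myeloid line reached 1 CPM (count per 1000000) in DMSO and the other, ITGAM, 0.964. They summed to 2379 CPM in DMSO and 1981 CPM in omipalisib, but NPM1, a nucleolar gene that most cell types express, gave 1387 and 925 of this. The other 10 summed to 992 and 1056 CPM, but single genes moved both ways. CSF1R had 32.2 CPM in DMSO and 101 CPM in omipalisib, and CD14 2.04 and 9.62 CPM. LYZ had 321 and 246 CPM, and PRTN3 86.3 and 44.4 CPM. The T cell genes CD3D and CD3E, the B cell gene MS4A1 and the erythroid genes HBB and KLF1 were at 0 in both libraries, which allows up to 0.114 CPM in DMSO and 0.133 CPM in omipalisib. The 5 lymphoid genes summed to 0.733 and 0.827 CPM. Among 5 stromal or epithelial markers COL1A2 was above 1 CPM, at 96.7 CPM in DMSO and 68.0 CPM in omipalisib, while COL1A1, EPCAM, KRT19 and VWF were at or near 0.

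Messages for the splicing machinery were mostly a little lower in the omipalisib library, and none of the measured members differed by a factor of 2. Of the 80, 24 were called lower and 1 higher, against 14.1% lower and 16.8% higher among all 15660 measured genes. By the interval alone, 57 were lower and 8 higher, against 28.6% and 26.1% of all measured genes, and 15 intervals included 0. Their median log2 ratio was −0.22, against 0.0029 over all measured genes and −0.029 over the 12180 other protein-coding genes. The members were abundant, with a median summed count of 6320, so genes that reached 1000 counts are the closer background. Of the 7522 protein-coding genes that reached a summed count of 1000, 18.3% were called lower and 10.8% higher, or 46.5% and 27.0% by the interval alone, and 0.199% and 0.798% differed by a factor of 2 or more. Of the 73 members at that depth, 22 were called lower and none higher, or 55 and 7 by the interval alone. The 7449 other genes that reached 1000 counts had a median log2 ratio of −0.074, and these 73 had −0.25. Their median summed counts were 3123 and 7174, so the depths still differ. Intervals narrow as counts rise, so shares by the interval are not matched for depth here. Of the 24, 7 lost the call with library totals as the scaling: LSM2, LSM3, LSM6, HNRNPA3, HNRNPL, SF3B4 and SRSF1. The same genes, LSM10 and HNRNPD lost it with nuclear protein-coding totals.

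**Figure D1:**
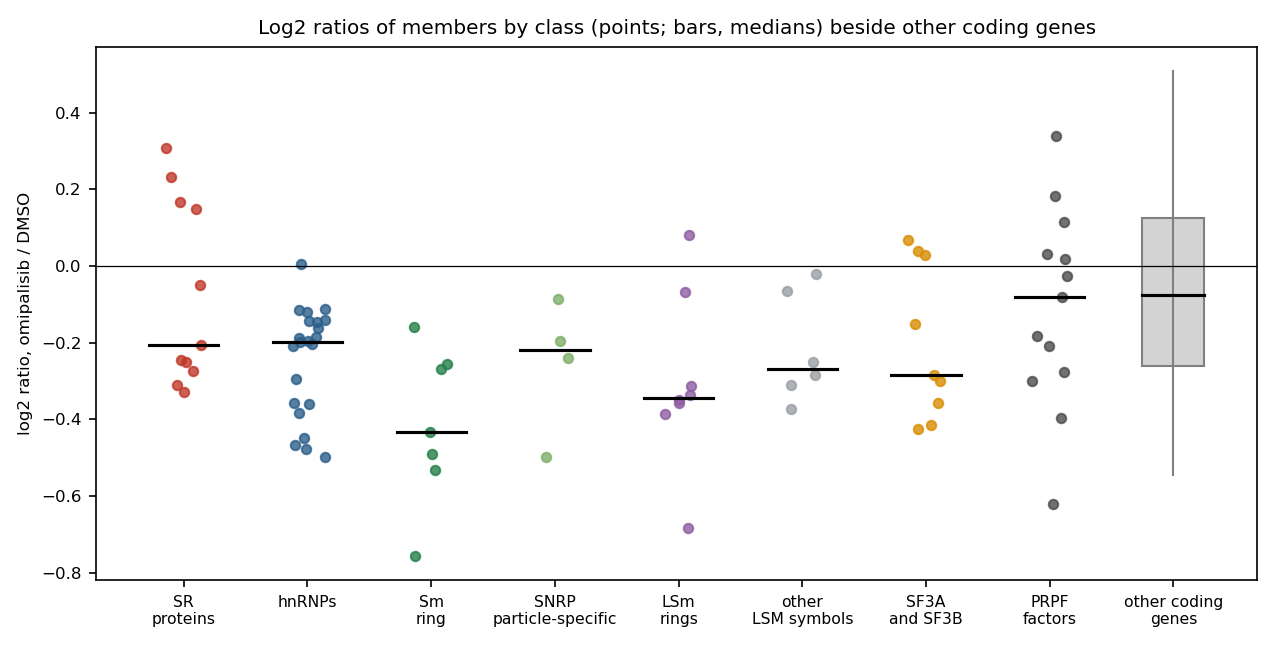
Log2 ratio of omipalisib over DMSO (y axis) for each measured member, 1 point per gene, by class, with a bar at each class median. The box shows the 7449 other protein-coding genes with at least 1000 counts (quartiles −0.26 and 0.12, bar at the median, line from percentile 5 to 95). The Sm ring has a median of −0.43 (−0.27 without SNRPG and SNRPE, whose counts are uncertain), and the PRPF factors are centred at −0.079, close to the box's median of −0.074.

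Class medians ran from −0.43 to −0.079, all below 0. The Sm ring proteins had a median of −0.43 (7 measured), the LSm rings −0.34 (8), the SF3A and SF3B proteins −0.28 (9) and the particle-specific SNRP proteins −0.22 (4). SR proteins had a median of −0.21 (11 measured) and hnRNPs −0.20 (22), and the PRPF factors −0.079 (13). The order of the classes does not hold under every setting. Without members that share 5% or more of their sequence words with another gene, which removes SNRPG and SNRPE, the Sm ring had −0.27, above the LSm rings at −0.34 and the SF3 proteins at −0.28. The PRPF median was −0.0178 with nuclear protein-coding totals and −0.0306 with library totals. The difference between classes was not tested, since genes of 2 libraries are not replicates. In fragments rather than genes, the members took 2.27% of the DMSO library (exact binomial interval 2.27 to 2.28) and 2.03% of the omipalisib library (2.02 to 2.04). The hnRNPs alone made up 1.34% and 1.17%, and the SR proteins 0.321% (0.318 to 0.323) and 0.314% (0.311 to 0.316).

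**Figure D2:**
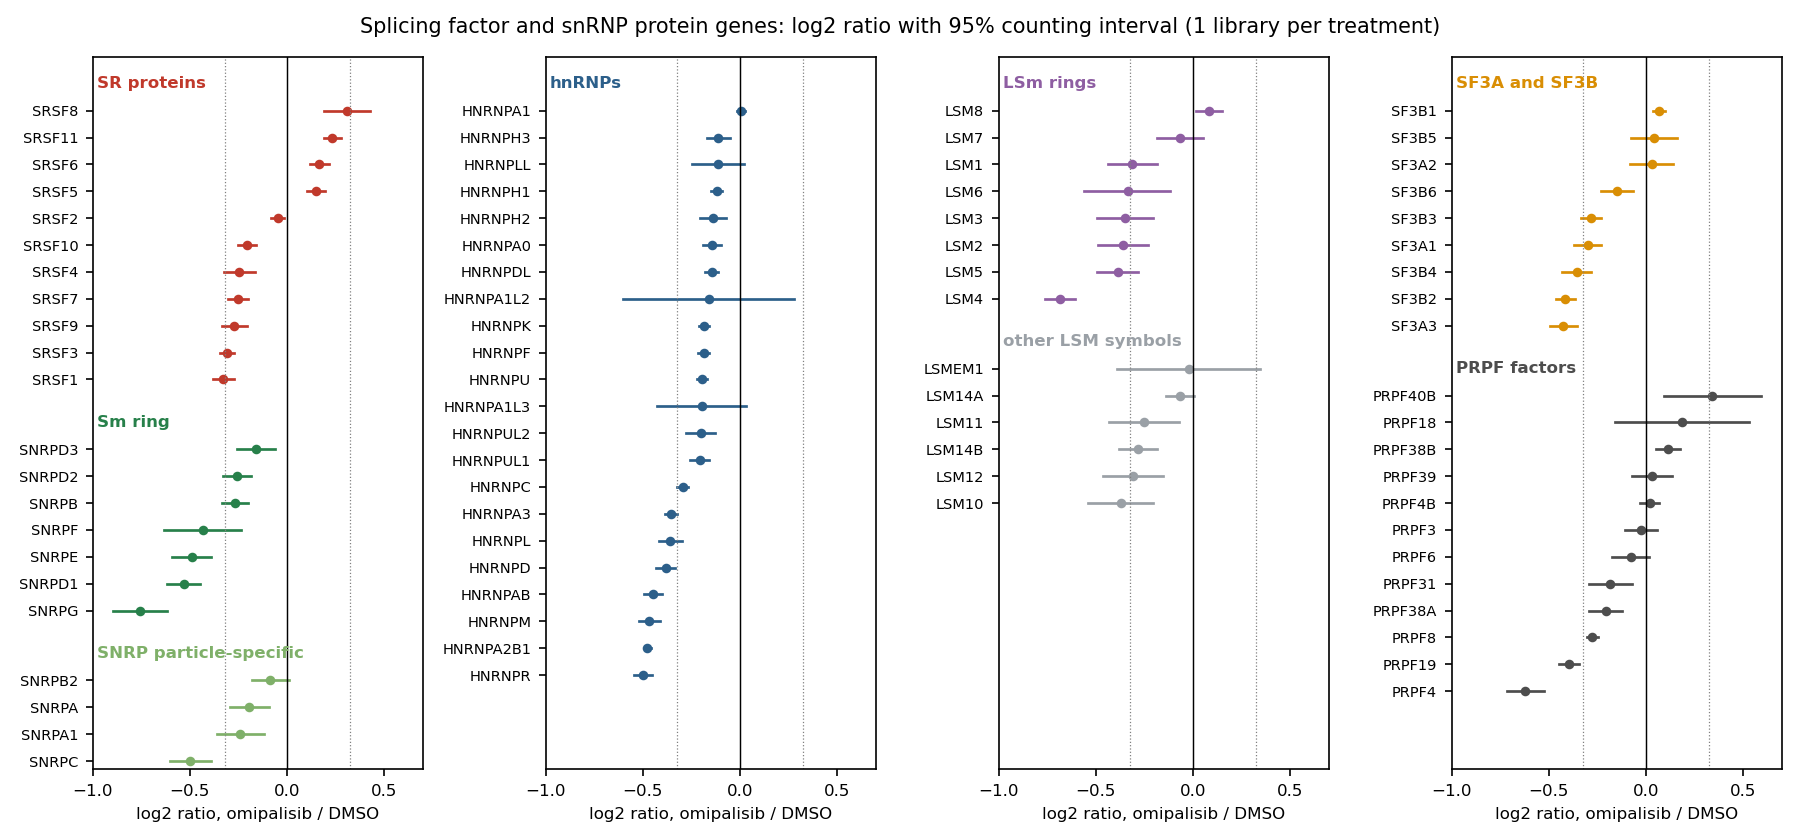
Log2 ratio of omipalisib over DMSO (x axis) for 79 of the 80 measured members, grouped by class, with the 95% counting interval as a line and dotted lines at a log2 ratio of 0.32 either way. SNRPG, LSM4 and PRPF4 lie farthest to the left, at −0.76, −0.68 and −0.62, and PRPF40B, SRSF8 and SRSF11 farthest to the right, at 0.34, 0.31 and 0.23.

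The Sm proteins form a closed ring around the RNA of U1, U2, U4 and U5, and all 7 measured Sm genes had intervals below 0. SNRPG, which encodes SmG, had 1206 counts in DMSO and 633 in omipalisib, a log2 ratio of −0.76 (−0.90 to −0.62), the lowest ratio of all members. This is a level of 0.592 (0.537 to 0.652) times that in DMSO. The gene lies on the minus strand of chromosome 2, 70281362 to 70293740 (GRCh38), and its counts were taken over its exons. SNRPD1, for SmD1, had 2930 and 1795 counts (log2 ratio −0.53, −0.62 to −0.45). SNRPE, for SmE, had 2150 and 1356 counts (log2 ratio −0.49, −0.59 to −0.39), and SNRPF, for SmF, had 533 and 350 counts (log2 ratio −0.43, −0.63 to −0.24). These 4 were called lower, 57.1% of the 7 measured. Among protein-coding genes that reached 1000 counts, 18.3% were called lower and 46.5% were lower by the interval. SNRPB, SNRPD2 and SNRPD3 were lower by the interval alone, at −0.27, −0.26 and −0.16, so the members of a single ring spanned −0.76 to −0.16. Within each library, which needs no scaling, the count of SNRPG over that of SNRPD2 was 0.326 in DMSO and 0.230 in omipalisib, a log2 difference of −0.50 (−0.66 to −0.34). Per kilobase of exon, levels ran from 6.76 CPM for SNRPF to 125 for SNRPB in DMSO. SNRPN, whose product replaces SmB in neurons, had 0 counts in both libraries, and 43.8% of its exonic bases overlap other genes on its strand, where fragments are not counted.

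Several Sm genes have processed pseudogenes, copies of the mRNA put back into the genome, and reads that fit both places equally well are lost from the gene. SNRPG has 20 annotated pseudogenes, SNRPC 18 and SNRPE 10. The pseudogene SNRPEP4 of SNRPE, on the minus strand of chromosome 19, 5576660 to 5576938, had 169 counts in DMSO and 108 in omipalisib. The 10 pseudogenes in sum held 169 and 111 counts, which is 7.86% and 8.19% of the counts on SNRPE. With those added, the log2 ratio of SNRPE was −0.49, as before. For SNRPG, the pseudogenes held 258 and 105 counts, and with them the ratio was −0.81 in place of −0.76.

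The same check was made for every member. Of the 88, 38 have annotated pseudogenes named after them, 207 in all, which held 3763 counts in DMSO and 2844 in omipalisib. Of all 75-base words in the longest coding transcript, 10 measured members share 5% or more with another gene, and 55 share none. The largest shares among measured members were 61.8% for HNRNPA1, 50.7% for LSM12, 42.0% for HNRNPA3, 41.3% for HNRNPA1L3, 40.8% for HNRNPA1L2 and 28.8% for SNRPA1, followed by HNRNPC (16.3%), SNRPG (15.7%), SNRPE (13.9%) and HNRNPL (9.85%). The values of these 10 are uncertain. The median log2 ratio was −0.21 over the 70 members under 5% and −0.30 over these 10. LSM12 differed most between the ways of counting, from −0.31 to −0.030, when the 248 and 341 counts of LSM12P1 were added. Same-strand overlap of 10% or more of the exonic bases, where fragments are not counted, was found for 7 measured members: HNRNPUL2 (44.3%), PRPF18 (42.5%), SRSF1 (32.7%), SNRPB (20.0%), HNRNPH2 (15.8%), SNRPD3 (14.0%) and SRSF6 (13.4%). With every member that has a pseudogene or a same-strand overlap left out, 35 remained, of which 8 were called lower and 1 higher, with a median of −0.19. That is 22.9% lower and 2.86% higher, against 18.3% and 10.8% of protein-coding genes that reached 1000 counts. Among all 80 measured members, 30.0% were called lower.

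The particle-specific SNRP proteins sit on 1 kind of snRNP. SNRPC, the U1-C protein that steadies pairing with the 5′ splice site, had 1888 and 1185 counts (log2 ratio −0.50, −0.60 to −0.39) and was called lower. SNRPA, the U1-A protein, had 1845 and 1429 counts (log2 ratio −0.19, −0.30 to −0.094). In U2, SNRPA1 had 1301 and 976 counts (log2 ratio −0.24, −0.36 to −0.12), while SNRPB2 had −0.086, with an interval that included 0. The pair of U1 genes differed from each other, with a log2 difference for SNRPA over SNRPC of 0.30 (0.16 to 0.45). The U2 pair SNRPA1 over SNRPB2 differed by −0.16 (−0.31 to −0.0026), at the edge of counting error.

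LSm proteins form a pair of rings that share 6 subunits, LSM2 to LSM7. With LSM8 the ring is nuclear and holds the 3′ end of U6, and with LSM1 it is cytoplasmic and takes part in decapping and decay of mRNA. Of the 8 ring genes, 5 were called lower (62.5%) and 6 were lower by the interval alone (75%). Protein-coding genes that reached 1000 counts gave 18.3% and 46.5%. With library totals or nuclear protein-coding totals, 2 (LSM4 and LSM5) were called lower, and the background was not counted under those scalings. LSM4 had 3899 counts in DMSO and 2153 in omipalisib, a log2 ratio of −0.68 (−0.76 to −0.61), a level 0.623 (0.591 to 0.657) times that in DMSO. It lies on the minus strand of chromosome 19, 18306230 to 18323274. LSM5 had 1841 and 1248 counts (log2 ratio −0.39, −0.49 to −0.28), LSM2 1209 and 836 counts (log2 ratio −0.36, −0.49 to −0.23), and LSM3 978 and 680 counts (log2 ratio −0.35, −0.49 to −0.21). LSM6 had −0.34 (−0.56 to −0.12) on 409 and 287 counts. LSM7 had 1255 and 1062 counts, with −0.067 (−0.19 to 0.052), an interval that included 0. Among shared subunits, LSM4 over LSM7 thus differed by −0.62 (−0.76 to −0.48).

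The subunits that tell the rings apart lay on opposite sides of 0. LSM1 had 1249 and 892 counts (log2 ratio −0.31, −0.44 to −0.19), lower by the interval. LSM8 had 3782 and 3550 counts (log2 ratio 0.082, 0.016 to 0.15), higher by the interval. Scaling with DESeq2 size factors moves every ratio by −0.0384, a shift larger than that lower bound. Within each library, LSM1 over LSM8 was 0.330 in DMSO and 0.251 in omipalisib in counts, a log2 difference of −0.39 (−0.53 to −0.25). LSM8 has 17309 annotated exonic bases, and its ratio was −0.0519, on the other side of 0, once a trend of ratios with exonic length was removed. The other LSM genes are not part of these rings. LSM10 and LSM11 belong to the U7 particle, which trims histone mRNA, and had −0.37 (−0.54 to −0.21) on 724 and 496 counts and −0.25 (−0.43 to −0.073) on 599 and 446 counts. LSM12 had 821 and 587 counts (log2 ratio −0.31, −0.47 to −0.16). LSM14B, a protein of cytoplasmic mRNA granules, had 1974 and 1437 counts (log2 ratio −0.28, −0.38 to −0.19), and its relative LSM14A −0.066, an interval that included 0. LSMEM1 (−0.020) and LSMEM2 (0 counts in both) share only the prefix and encode membrane proteins.

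SF3A and SF3B proteins clamp U2 onto the branch site. Of the 9, 3 were called lower (33.3%), 6 were lower by the interval (66.7%), and SF3B1 was higher by the interval. These shares rest on few genes, and protein-coding genes that reached 1000 counts gave 18.3% and 46.5%. SF3A3 (chromosome 1, 37956975 to 37990075, minus strand) had 4250 and 2806 counts (log2 ratio −0.43, −0.49 to −0.36). SF3B2, which contacts the RNA near the branch site, had 7997 and 5318 counts (log2 ratio −0.41, −0.47 to −0.36). SF3B4 had 3591 and 2485 counts (log2 ratio −0.36, −0.43 to −0.28) and SF3B3 7377 and 5373 counts (log2 ratio −0.28, −0.33 to −0.23). SF3A1 had −0.30 and SF3B6, which touches the branch point adenosine, −0.15. SF3A2 and SF3B5 had 0.030 and 0.041, with intervals that included 0. SF3B1, the large scaffold of SF3B, had 17871 and 16618 counts (log2 ratio 0.069, 0.038 to 0.099). Scaling with DESeq2 size factors moves every ratio by −0.0384, which is as large as that lower bound. Set against SF3B2 and SF3B3 within each library, SF3B1 was relatively higher in omipalisib. SF3B1 over SF3B2 differed by 0.48 (0.43 to 0.54) and SF3B1 over SF3B3 by 0.35 (0.29 to 0.41). The interval of SF3B1 lay within those of SF3A2 and SF3B5, which were not paired with it. In SF3A, SF3A2 over SF3A3 differed by 0.46 (0.33 to 0.58).

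PRPF factors join the snRNPs to each other and act during catalysis. Of the 13, 2 were called lower and 1 higher, or 6 and 2 by the interval alone. These shares, 15.4% called lower and 46.2% lower by the interval, are close to the 18.3% and 46.5% of protein-coding genes that reached 1000 counts. PRPF4, which with PRPF3 holds U4 to U6, had 2410 counts in DMSO and 1390 in omipalisib, a log2 ratio of −0.62 (−0.72 to −0.52). It lies on the plus strand of chromosome 9, 113275343 to 113292905. Its partner PRPF3 had 2599 and 2262 counts and −0.027 (−0.11 to 0.055), so that PRPF3 over PRPF4 differed by 0.59 (0.47 to 0.72). PRPF31, also of U4/U6, had −0.18. PRPF19, the ubiquitin ligase of the PRPF19 complex, had 7736 and 5211 counts (log2 ratio −0.40, −0.45 to −0.35). PRPF8, the protein at the heart of U5, had 26668 and 19534 counts (log2 ratio −0.28, −0.30 to −0.25), and PRPF6, which bridges U5 and U4/U6, −0.079, with an interval that included 0. PRPF40B, related to a yeast U1 protein, had 252 and 283 counts (log2 ratio 0.34, 0.091 to 0.59), the member called higher, on few counts, and not called with DESeq2 size factors. PRPF38B had 4466 and 4286 counts (log2 ratio 0.11, 0.054 to 0.18), while PRPF38A was lower by the interval at −0.21. The kinase PRPF4B (0.019), PRPF39 (0.032) and PRPF18 (0.18, with 142 and 143 counts) had intervals that included 0.

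SR proteins bind exonic enhancers through RNA recognition motifs and recruit the spliceosome through arginine and serine rich tails. By the interval, 7 of the 11 were lower (63.6%) and 4 higher (36.4%), and 1 was called lower (9.09%) and none higher. Protein-coding genes that reached 1000 counts gave 46.5% and 27.0% by the interval, and 18.3% and 10.8% called. The measured SR genes had a median summed count of 14401, against 3123 for the 7449 other such genes, so their intervals tend to be narrower. SRSF1, a substrate of the SR protein kinases, had 6765 counts in DMSO and 4778 in omipalisib, a log2 ratio of −0.33 (−0.38 to −0.27). It lies on the minus strand of chromosome 17, 58000919 to 58007346, and 32.7% of its exonic bases overlap a gene with 2 counts in DMSO and 0 in omipalisib. SRSF3, a small SR protein, had 13222 and 9462 counts (log2 ratio −0.31, −0.35 to −0.27). SRSF9 had 4605 and 3379 counts (log2 ratio −0.27, −0.34 to −0.21) and SRSF7 7139 and 5319 counts (log2 ratio −0.25, −0.30 to −0.20). SRSF4 and SRSF10 had −0.25 and −0.21. SRSF2, the most abundant SR message per kilobase at 205 CPM per kb in DMSO and 198 in omipalisib, had 16062 and 13761 counts (log2 ratio −0.049, −0.082 to −0.016). That difference of −0.049 is smaller than the largest shift of another scaling against TMM (0.0616), and scaling by nuclear protein-coding totals gave 0.0123.

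The higher SR genes were SRSF8, SRSF11, SRSF6 and SRSF5. SRSF11, a protein of nuclear speckles, had 8906 and 9280 counts (log2 ratio 0.23, 0.19 to 0.28), a level 1.18 (1.14 to 1.21) times that in DMSO. SRSF8, a relative of SRSF2, had 1102 and 1209 counts (log2 ratio 0.31, 0.19 to 0.43), just short of the limit for a call. SRSF6 had 7219 and 7182 counts (log2 ratio 0.17, 0.12 to 0.21) and SRSF5 7451 and 7322 counts (log2 ratio 0.15, 0.10 to 0.20). Within each library, SRSF11 over SRSF1 was 1.32 in DMSO and 1.94 in omipalisib in counts, a log2 difference of 0.56 (0.49 to 0.63). SRSF5 over SRSF7 differed by 0.40 (0.33 to 0.47), SRSF6 over SRSF4 by 0.41 (0.32 to 0.50) and SRSF8 over SRSF2 by 0.36 (0.23 to 0.48). These pairs, like those above, were picked with the values known and describe the spread within a class. The class median rests on the mix of genes: over the 4 SR genes with neither a pseudogene nor a same-strand overlap (SRSF5, SRSF7, SRSF8 and SRSF11) it was 0.19 in place of −0.21. SRSF12 had 0 counts in both libraries.

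hnRNPs coat nascent transcripts and often oppose SR proteins. Of the 22 measured, 7 were called lower (31.8%) and none higher, and by the interval 18 were lower (81.8%) and none higher. Protein-coding genes that reached 1000 counts gave 18.3% called lower and 46.5% lower by the interval. The measured hnRNPs had a median summed count of 15408.5, against 3123 for the 7449 other such genes, so their intervals tend to be narrower. HNRNPA2B1, which binds UAG motifs and is the member with most counts, had 65578 counts in DMSO and 41771 in omipalisib, a log2 ratio of −0.48 (−0.49 to −0.46). It lies on the minus strand of chromosome 7, 26173057 to 26201529. HNRNPR had 10283 and 6453 counts (log2 ratio −0.50, −0.54 to −0.45), HNRNPM 6593 and 4231 counts (log2 ratio −0.47, −0.52 to −0.41), and HNRNPAB 9416 and 6115 counts (log2 ratio −0.45, −0.50 to −0.40). HNRNPD (AUF1), a binder of AU-rich elements, HNRNPL, a binder of CA repeats, and HNRNPA3 were the other genes called lower, at −0.38, −0.36 and −0.36. HNRNPC, which covers uridine tracts, was at −0.29, and the scaffold protein HNRNPU at −0.20. HNRNPK, HNRNPF and the relatives HNRNPH1, HNRNPH2 and HNRNPH3 lay between −0.11 and −0.19. So did HNRNPA0 and HNRNPDL, a relative of HNRNPD, while HNRNPUL1 and HNRNPUL2, relatives of HNRNPU, were at −0.21 and −0.20. HNRNPD over HNRNPDL differed by −0.24 (−0.30 to −0.18).

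HNRNPA1 stood at the other end of the class. It had 46266 counts in DMSO and 41153 in omipalisib, a log2 ratio of 0.0048 (−0.014 to 0.024), and it was the highest member per kilobase at 350.4 CPM per kb in DMSO and 352 in omipalisib. Its close relative HNRNPA2B1 was at 273 CPM per kb in DMSO and 196 in omipalisib. In counts, HNRNPA1 over HNRNPA2B1 was 0.706 in DMSO and 0.985 in omipalisib, a log2 difference of 0.48 (0.46 to 0.51). HNRNPA1 has 74 annotated pseudogenes, which held 1023 and 952 counts, and its ratio with these added was 0.0062, so its level is uncertain. HNRNPH1 over HNRNPH2, another pair of close relatives, differed by 0.022 (−0.050 to 0.093), an interval that includes 0. The coding copies HNRNPA1L2 and HNRNPA1L3 had 101 and 80 counts and 361 and 279 counts, with intervals that included 0. HNRNPLL, a regulator of CD45 splicing in lymphocytes, had −0.11 (−0.25 to 0.018). HNRNPCL1, HNRNPCL2, HNRNPCL3, HNRNPCL4 and the readthrough gene HNRNPUL2-BSCL2 had 0 counts in both libraries.

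**Figure D3:**
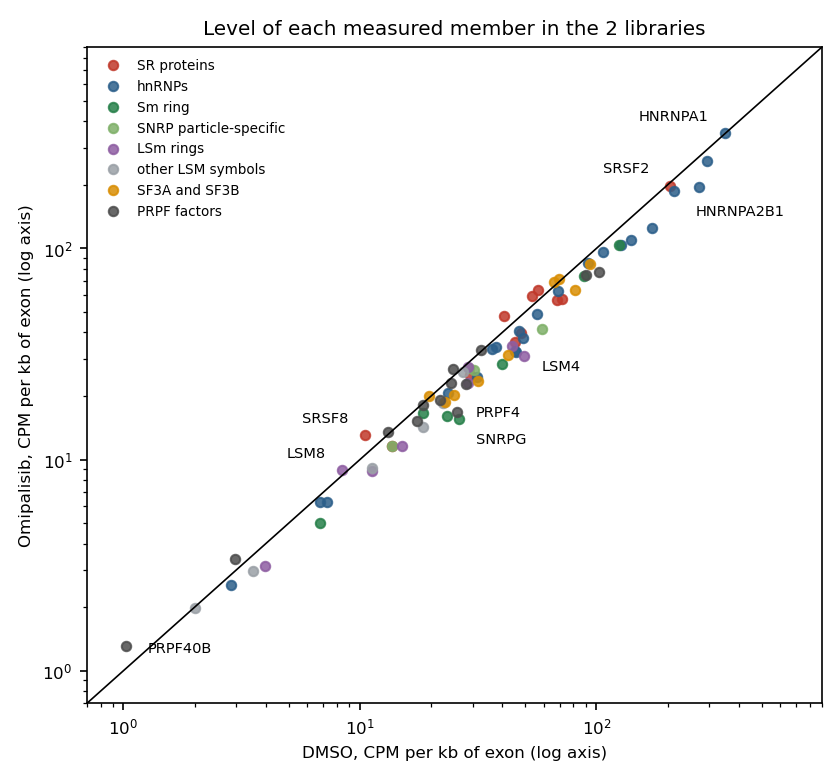
Level of each of the 80 measured members in DMSO (x axis) and omipalisib (y axis), in CPM per kilobase of exon on log axes, coloured by class, with a line at equal levels. HNRNPA1 lies on the line at 350 and 352, HNRNPA2B1 below it at 273 and 196, and SRSF8 above it at 10.6 and 13.1.

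Neither level nor length went closely with the ratio. Across the 80 genes, which share both libraries and are not independent, the log2 ratio had a Pearson's r of −0.064 (Spearman's rho 0.00028) with the log2 summed count and 0.15 (rho 0.11) with log2 exonic length. Across the 12180 other protein-coding genes, r with length was 0.12.

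Promoter letters were counted because members of a single complex had unlike ratios. The RefSeq table (GRCh38.p14) held 75 of the 88 genes, with 250 bases before and 50 after each listed start. The 150 bases before the start nearest to the gene's annotated 5′ end are printed for the lowest Sm and LSm genes and for the higher SRSF11 and LSM8. They are SNRPG (chr2:70293459-70293608, minus strand), LSM4 (chr19:18323077-18323226, minus strand), SRSF11 (chr1:70205546-70205695, plus strand) and LSM8 (chr7:118184014-118184163, plus strand). The stretches are unlike in place: those of SNRPG and LSM4 lie inside the gene spans given above. Those of SRSF11 and LSM8 lie mostly before the gene's annotated 5′ end. Capitals mark any of 7 motifs, searched on both strands. The CCAAT box was searched as CCAAT, the binding letters of basic helix-loop-helix factors (E-box) as CACGTG, and the GC box of Sp factors as GGGCGG. The ETS motif was searched as CCGGAAG, the YY1 motif as AAGATGGCG, the E2F motif as TTTCCCGC, and the TATA box as TATAAA. Adjoining GC boxes in LSM4 overlap and read as 1 run.
SNRPG: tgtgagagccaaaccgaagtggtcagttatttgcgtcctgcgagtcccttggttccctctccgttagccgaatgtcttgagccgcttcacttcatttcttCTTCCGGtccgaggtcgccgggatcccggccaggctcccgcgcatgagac
LSM4: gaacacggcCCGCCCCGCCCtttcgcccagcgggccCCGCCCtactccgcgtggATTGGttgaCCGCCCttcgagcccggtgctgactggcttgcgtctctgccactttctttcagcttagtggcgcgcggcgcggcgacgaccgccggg
SRSF11: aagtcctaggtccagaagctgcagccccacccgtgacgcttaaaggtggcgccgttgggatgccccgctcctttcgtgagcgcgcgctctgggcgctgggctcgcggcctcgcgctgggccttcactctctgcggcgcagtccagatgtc
LSM8: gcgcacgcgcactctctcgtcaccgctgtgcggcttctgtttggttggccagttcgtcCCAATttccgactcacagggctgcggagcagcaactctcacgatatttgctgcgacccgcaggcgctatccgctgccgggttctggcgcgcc
In the full windows, 22 of 68 measured members with a promoter held the ETS letters (32.4%), against 12.2% of all 27305 genes in the table and 25.9% of 6189 other protein-coding genes with at least 1000 counts. The CCAAT letters were in 36 members (52.9%, against 39.7% and 44.0%), and the GC box in 44 (64.7%, against 48.3% and 78.8%). The E-box was in 8 (11.8%, against 8.77% and 14.0%). The ETS letters were in 8 of the 22 members called lower (36.4%) and 14 of the other 46 (30.4%), and CCAAT in 10 (45.5%) and 26 (56.5%). YY1, E2F and TATA letters were in 4 (5.88%), 5 (7.35%) and 8 (11.8%) of the 68, against 2.14%, 1.98% and 14.0% of all genes. Among the other protein-coding genes with at least 1000 counts, they were in 6.16%, 3.81% and 7.71%. A match is only a run of letters and was not tested as a binding site.

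The wider machinery was counted in 10 lists of splicing genes outside these prefixes, and 186 of their genes were measured. Of these, 40 were called lower and 11 higher, or 103 and 37 by the interval alone, with a median of −0.15. These are 21.5% and 5.91% called, and 55.4% and 19.9% by the interval. The protein-coding genes that reached 1000 counts gave 18.3% and 10.8% called, and 46.5% and 27.0% by the interval, so the lower calls of the wider lists were near that background. With library totals, 26 wider genes were called lower, and the background was not counted with that scaling. The counts of each list below are read against the same 46.5% and 27.0%. Proteins of the major snRNPs under other names had intervals below 0 in 21 of 28 genes (75%) and above 0 in 3 (median −0.28). PHF5A, a subunit of SF3B, had 1762 and 1044 counts (log2 ratio −0.58, −0.69 to −0.47), and PPIH, the cyclophilin that binds PRPF4, 881 and 518 counts (log2 ratio −0.59, −0.75 to −0.43). LUC7L3 and LUC7L2, U1-associated proteins, were higher by the interval at 0.19 and 0.13, and 22.9% of the exonic bases of LUC7L2 overlap other genes on its strand. The assembly factors that load Sm rings onto snRNA, the SMN complex and its methylase, gave 12 lower (66.7%) and 1 higher among 18 by the interval (median −0.22). Examples were GEMIN5, the snRNA-binding subunit, at −0.43 (−0.52 to −0.34) and GEMIN4 at −0.41 (−0.48 to −0.33), with GEMIN8 higher at 0.41 (0.17 to 0.66). All 5 factors of U6 processing were measured, 4 lower (80.0%) and none higher by the interval, among them METTL16, a methyltransferase of U6, at −0.41 and the capping enzyme MEPCE at −0.33.

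Factors of catalytic activation and the exon junction gave 20 lower (62.5%) and 3 higher among 32 by the interval (median −0.19). BUD31 and RBM8A, an exon junction core protein, had −0.44 and −0.37, and SYF2 had 0.52 and SLU7 0.21. Of 11 helicases, 8 were lower (72.7%) and 3 higher (27.3%) by the interval. DDX39A and DHX15, which takes spent spliceosomes apart, had −0.36 and −0.33, against 0.38 (0.35 to 0.41) for DDX17 and 0.25 for DDX39B, of which 30.8% of the exonic bases overlap another gene on the strand. Partners of the LSM1 ring in decapping gave 4 lower (44.4%) and 2 higher (22.2%) among 9 by the interval, with PATL1, which binds that ring, at −0.39 (−0.48 to −0.29), DDX6 at −0.23, the decapping enzyme DCP2 at 0.14 and the exonuclease XRN1 at 0.14. In the minor spliceosome, which removes a rare class of introns, 8 of 12 intervals included 0, 2 lay below (16.7%) and 2 above. This list had a median summed count of 1342.5, against 4448.5 for the list of major snRNP proteins. Intervals are wider at lower counts, so the shares of these lists are not matched for depth. SNRNP25 had 1403 and 765 counts (log2 ratio −0.70, −0.83 to −0.57) and SNRNP48 −0.43, with PDCD7 at 0.11. RNPC3 had 579 and 1424 counts (log2 ratio 1.47, 1.33 to 1.61), but 18.9% of its exonic bases overlap AMY2B on the same strand, so its count is uncertain.

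Lists of genes that act on SR proteins, or resemble them, had members on both sides of 0. Of 24 SR-related and speckle genes, 10 had intervals below 0 (41.7%) and 9 above (37.5%; median −0.036). RSRP1 had 2906 and 3935 counts (log2 ratio 0.61, 0.54 to 0.68) and PNISR 6511 and 8186 counts (log2 ratio 0.50, 0.46 to 0.55), against −0.53 (−0.72 to −0.35) for RSRC1 and −0.30 for SRRM1. Of 9 SR protein kinases and import factors, 3 lay below (33.3%) and 4 above (44.4%; median −0.043). CLK1, a kinase that phosphorylates SR proteins in speckles, had 2844 and 3694 counts (log2 ratio 0.55, 0.48 to 0.62), and its relative CLK4 822 and 969 counts (log2 ratio 0.41, 0.28 to 0.55). TNPO3, which carries SR proteins into the nucleus, had 4122 and 2868 counts (log2 ratio −0.35, −0.42 to −0.28), and TNPO1, which carries HNRNPA1, −0.27. Among 38 other regulators of alternative splicing, 19 lay below (50.0%) and 10 above (26.3%; median −0.060). The double-stranded RNA binder ILF2 had −0.49 and TARDBP, the gene for TDP-43, −0.46. Of the exonic bases of TARDBP, 29% overlap another gene on its strand, so its count is uncertain. TIA1, which favours weak 5′ splice sites, had 0.40 and RBM5 0.27. The difference between these lists and the snRNP lists was not tested.

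**Figure D4:**
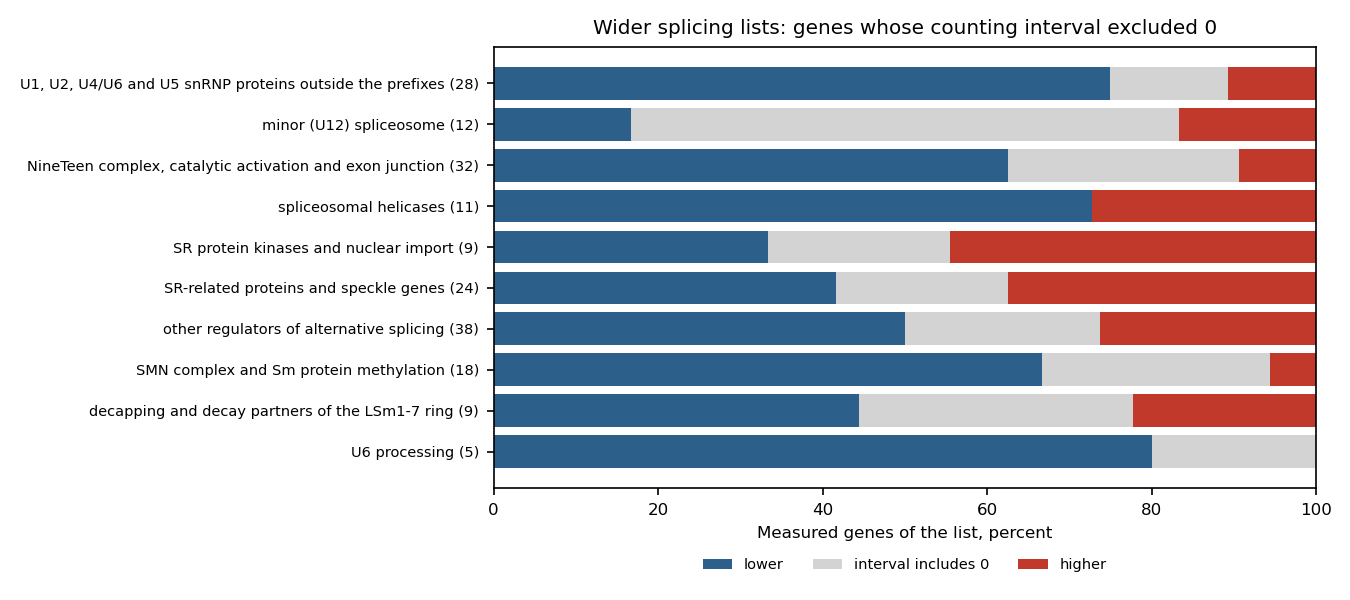
Share of measured genes in each of 10 wider splicing lists (x axis, percent; number measured in brackets) whose counting interval lay below 0 (blue), above 0 (red) or included 0 (grey). Blue takes 21 of 28 genes in the list of other snRNP proteins and 10 of 24 in the list of SR-related and speckle genes.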

How the data were processed

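Each library has 1 deposited file of raw counts per gene, and the unit of these deposited values is counts. Per the file headers, the authors used featureCounts 2.0.1 to sum fragments over the exons of each gene, requiring both ends aligned, with strand setting 2 (reverse). No option for multiply aligned or shared fragments is recorded, and the tool drops both by default. Libraries were stranded TruSeq from total RNA, per the labels' protocols. The aligner, and how ribosomal RNA was removed, are stated in no source used here. Both hg19 and GRCh37 appear in the submitters' processing notes, but of 58516 genes found in GENCODE release 29, 58513 overlapped its GRCh38 position, so coordinates are given as GRCh38. Biotypes came from that release, and symbols from the gene name table. Exonic lengths (in bases) came from the deposited files.

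Libraries were scaled with TMM factors (0.983 for DMSO, 1.02 for omipalisib; edgeR 4.0.16, R 4.3.3). A log2 ratio took 0.5 added to each count, and its 95% bounds were those of omipalisib's share of the summed count (Clopper-Pearson, exact; scipy 1.17.1). Intervals between 2 genes use the normal approximation to the log odds ratio. No molecular identifiers are recorded for the reads, so all intervals cover counting error only. The scripts were checked on simulated counts. Values of 1 member and a pair of sequences are not reported here.

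The members, lists and pairs were chosen with earlier results of these data known. In each class, counts were given for up to 4 lower and 4 higher members whose intervals lay farthest from 0, for both ends of each ring, and for SRSF2, SF3B1 and PRPF8. In each wider list, values were given for up to 2 genes per direction by the same measure. Alternatives were other scalings, count minimums, a pseudocount of 1, thinning of DMSO, removal of a length trend, removal of uncertain members and other call limits.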

Additional observations from a re-analysis of the deposited data

How the results depend on the processing

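With 1 library per treatment there was no replicate to leave out, and no paired analysis was possible because each group has 1 sample. Against TMM, the other scalings moved every log2 ratio by −0.038 to 0.062. Many log2 ratios lie near the limit of 0.32, and the counts of calls move with that limit. Counts here are of genes called lower unless stated. Why a count differed between scalings was not tested.

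By the interval alone, the call went from 24 to 57 members lower and from 1 to 8 higher. By class the lower counts were 7 SR proteins (from 1), 18 hnRNPs (from 7), 7 Sm ring (from 4), 3 SNRP particle-specific (from 1), 4 other LSM (from 1), 6 SF3 (from 3) and 6 PRPF (from 2). The higher counts were 4 SR proteins, 1 LSm ring and 1 SF3 (each from 0), and 2 PRPF (from 1). Wider genes went to 103 lower (from 40) and 37 higher (from 11). With a ratio of at least 1.5 as the limit, 3 members were lower and 0 higher: 1 Sm ring, 1 LSm ring and 1 PRPF, with 0 SR, hnRNP, SNRP particle-specific, other LSM and SF3 genes and 0 PRPF higher. Wider genes were then 2 lower and 2 higher.

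With nuclear protein-coding totals, 15 members were lower, 2 higher, and the median −0.16 (from −0.22): 0 SR lower and 1 higher, 4 hnRNPs (median −0.14, from −0.20), 2 LSm ring, 0 other LSM, and 25 wider genes. SRSF2 then had 0.0123, on the other side of 0. With library totals, 2 members were higher, the median was −0.18, and 0 SR were lower and 1 higher, with 2 LSm ring genes and 26 wider genes lower. With DESeq2 size factors, 32 members were lower and 0 higher. Among them 2 SR, 3 other LSM and 5 SF3 genes were lower and 0 PRPF higher. With DMSO thinned, 1 SR gene was higher, 2 other LSM genes were lower and 0 PRPF genes higher. With the length trend removed, 29 members were lower. Among them 2 SR genes were lower and 1 higher, and 4 PRPF genes were lower and 0 higher. LSM8 then had −0.0519, on the other side of 0.

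Without members that have a pseudogene or an overlap, 35 were left, of which 8 were lower: 0 SR, 1 hnRNP, 1 Sm ring, 0 SNRP particle-specific, 3 LSm ring, 1 SF3 and 1 PRPF. The SR median was then 0.19 over 4 genes, opposite in sign. Without members that share 5% of words, an alternative chosen after seeing the data, 20 of the 24 were left and 2 Sm ring genes were lower. The Sm ring median was then −0.27 (from −0.43), above those of the LSm rings (−0.34) and SF3 (−0.28). Fewer genes were counted in these last 2 settings, so their counts cannot be set directly against the 24. Of the 35, 22.9% were called lower, against 30.0% of all 80 measured members. Why these shares differed was not tested. The upper quartile scaling, the count minimums and the pseudocount moved no count of members by over 1.5 times and turned no median. Depth limits PRPF18, PRPF40B, HNRNPA1L2 and LSMEM1, whose counts are under 300 in each library.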
